A study of Mus musculus with 16 samples.

Results

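The endothelial cells of the mouse heart whose Klf2 and Klf4 genes were both targeted for deletion (DKO) were set against those of Cre control animals, over all genes, in 4 DKO and 4 control libraries of the 16 libraries in the series. In both groups, C57BL/6J mice of 8 to 10 weeks were injected with tamoxifen, and heart endothelial cells were captured on day 6 with magnetic beads directed at CD31, a surface protein of endothelium. Each library pooled cells from 2 mice. The DKO mice are labelled as endothelial double knockouts of Klf2 and Klf4, and the control mice as Cre control. The labels give neither the promoter that drove Cre nor whether the controls carry alleles open to deletion. The other 8 libraries come from endothelial knockouts of Klf2 alone (K2KO) and of Klf4 alone (K4KO), 4 each, and share these controls. Total RNA was read by stranded sequencing, and the unit throughout is the scaled count, a gene's read count divided by 1 factor per library. Libraries go by their column numbers, 2 to 5 for DKO and 1 to 4 for controls.

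KLF2 and KLF4 are zinc finger transcription factors of the Krüppel-like family. Laminar blood flow raises both in endothelium, where they are known for keeping vessels quiescent, anticoagulant and poorly adhesive to leukocytes. They bind CACCC-like sequences and share many target genes, among them the genes of thrombomodulin and endothelial nitric oxide synthase.

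The labels were first set against the targeted genes. Klf2 (ENSMUSG00000055148, chromosome 8, 72319033 to 72321656, build GRCm38) stood at 7318, 9379.9, 10990 and 8576 scaled counts in the DKO libraries, against 5538, 6597, 10705 and 6066 in controls. Klf4 (ENSMUSG00000003032, chromosome 4, 55527143 to 55532466) stood at 7994, 10119.6, 11829 and 7845 scaled counts in the DKO libraries, against 7987, 8959.5, 13342 and 8476 in controls. The groups overlapped for both genes, and neither transcript was called lower: the log2 change was 0.36 ± 0.16 for Klf2 (SE, limma adjusted p = 0.0881) and -0.03 ± 0.15 for Klf4 (limma adjusted p = 0.923), with two-sided exact permutation p values of 0.2 and 0.943 (4 against 4 libraries cannot go below 0.0286). When all libraries were brought to one median (the same-median scaling), the Klf4 value turned to 0.24 and Klf2 was called higher, at 0.63, and Klf2 was also called higher without DKO library 2 (0.46) or without control library 3 (0.57). In K2KO libraries, by contrast, Klf2 averaged 3354 ± 203 scaled counts (SD, n = 4), and in K4KO libraries Klf4 averaged 5819 ± 705, with limma adjusted p of 0.00682 and 0.118 against the same controls. Counts per gene cannot show whether an exon is missing. Because the check goes against the label, the group is called DKO-labelled below, and every direction given rests on that label.

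The 8 libraries separated by group. The DKO-labelled libraries held 25.3 to 29.3 M reads, apart from library 4 with 106 M, and the control libraries held 23.5 to 24.3 M. The share of reads from protein-coding genes of the mitochondrion was 0.819 to 0.969% in DKO-labelled libraries and 1.11 to 1.41% in controls, and the nuclear RNA Malat1 took 0.453 to 0.617% in DKO-labelled libraries and 0.744 to 1.35% in controls. The part of these shares in the results was not tested. Over 11241 genes the root mean square log2 difference was 0.208 to 0.408 between DKO-labelled libraries, 0.660 to 0.923 between a DKO-labelled and a control library, and 0.230 to 0.451 between controls. Of 23816 genes tested with limma, 9119 were called at an adjusted p below 0.05, which is 38.3% of them, 4528 higher (19%) and 4591 lower (19.3%). All 4 DKO-labelled libraries lay above all 4 controls in 4493 genes (18.9%) and below them in 4319 (18.1%). A change of at least 2-fold was called higher in 1259 genes (5.29%) and lower in 2229 (9.36%). Under the same-median scaling 6922 genes were called higher and 2908 lower, and the median log2 change of all genes moved by 0.21, so a list whose median is closer to 0 than this can turn. Of the genes named below, the falls of Atm, Ddx5, Fam32a, Hes1, Icam1, Kdr, Psmb8, Rbl2, Srsf5, Tfeb and Tm7sf2 lost their calls under that scaling.

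The balance of rises and falls followed the level of the genes. Among 4661 genes with a mean of 1000 to 10000 scaled counts, 1994 were higher and 825 lower, whereas among 3941 genes with 10 to 100 scaled counts 433 were higher and 1344 lower. Protein-coding genes were called higher in 4261 and lower in 3799 of 16874 cases. Long intergenic RNAs were called higher in 59 (4.95%) and lower in 220 (18.5%) of 1192 cases, and antisense transcripts higher in 41 (4.23%) and lower in 112 (11.5%) of 970, so their share called higher lay below the 19% of all genes and their share called lower did not exceed the 19.3% of all. Shares of the summed scaled counts were taken over the tested genes without mitochondrial ribosomal RNA. The genes called at least 2-fold higher made up 11.6 ± 0.97% of these counts in DKO-labelled libraries and 4.5 ± 0.31% in controls. The genes called at least 2-fold lower made up 2.13 ± 0.35% in DKO-labelled libraries and 7.14 ± 0.56% in controls (SD, n = 4 each). The same libraries chose these genes, so the direction of both differences was fixed beforehand.

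**Figure D1:**
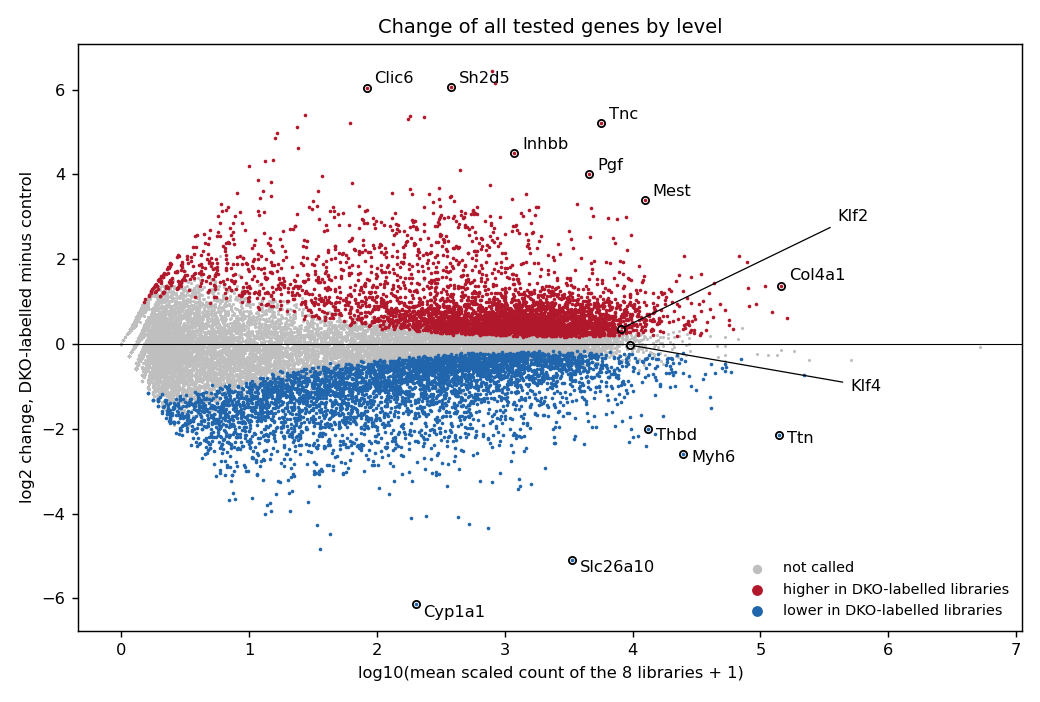
Log2 change, DKO-labelled minus control, against the log10 mean scaled count of the 8 libraries, 1 point per tested gene. Genes called higher (red, 4528) prevail at 1000 to 10000 scaled counts and genes called lower (blue, 4591) below 100, while Klf2 and Klf4 lie in the grey, uncalled band.

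Several genes of secreted and matrix proteins were among the largest rises of abundant genes. Tnc (chromosome 4, 63959785 to 64047015) encodes tenascin-C, a matrix glycoprotein of wounds and growing tissue, and had 9339.6, 11159, 12952 and 10862 scaled counts in DKO-labelled libraries, against 262, 261, 326 and 349 in controls (log2 5.21 ± 0.12). Mest (chromosome 6, 30723547 to 30748455), an imprinted gene of embryonic tissue, had 21293, 22384, 22196 and 24921 scaled counts in DKO-labelled libraries, against 1988, 1406, 2394 and 3215 in controls (log2 3.39 ± 0.17). The groups lay far apart for both genes, although the Mest controls ranged from 1406 to 3215 scaled counts. The placental growth factor gene Pgf was at 4507, 9740.5, 13425 and 6951 scaled counts in DKO-labelled libraries, against 439.9, 507, 594 and 468 in controls (log2 4.0 ± 0.23). Apln, which encodes the peptide apelin of sprouting endothelium, was at 15054, 14482, 16007 and 17496 scaled counts, against 1764, 1422, 2051 and 2951 in controls (log2 2.99 ± 0.17). Neither pair of groups overlapped, and among the DKO-labelled libraries Pgf was lowest in library 2 and highest in library 4 while Apln hardly varied. Lgals1, which encodes the lectin galectin-1, rose by 2.66 ± 0.15 on the log2 scale, and Cd109, which encodes a surface protein that binds transforming growth factor beta, by 2.53 ± 0.15. The limma adjusted p of these 6 genes ranged up to 4.23e-10.

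Large rises also occurred among less abundant genes. Sh2d5, an adaptor gene, had 519, 847, 910.3 and 725 scaled counts in DKO-labelled libraries, against 12.4, 10.9, 18.1 and 3.79 in controls (log2 6.06 ± 0.52). Gap43, known from growing axons, had 273, 505, 671 and 365 scaled counts, against 16.1, 17, 3.62 and 7.59 in controls (log2 5.35 ± 0.37). Ptchd1, on the X chromosome, had 706, 849.6, 986 and 824 scaled counts, against 47, 58.2, 47.1 and 40.5 in controls (log2 4.1 ± 0.17). No control library came near the lowest DKO-labelled library in any of them. Some transcripts had no read in the 4 control libraries. The neutrophil chemokine gene Cxcl3 had 16, 18, 109 and 44 reads in the DKO-labelled libraries, at least 32.5-fold higher than the level of 3 reads over the control group. The anion transporter gene Slc26a9 had 15, 20, 57 and 12 reads, at least 19.4-fold higher. Klk1b22, a kallikrein gene with close paralogues, had 208 and 72 reads in DKO-labelled libraries 4 and 5 and none in libraries 2 and 3, so it did not mark the group. In the other direction Serpina1d, of the alpha-1 antitrypsin cluster, had no read in DKO-labelled libraries and 11, 10, 7 and 11 reads in controls, at least 17.3-fold lower, and its reads could come from near-identical neighbours.

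Among genes with a mean of at least 1000 scaled counts in either group, the largest fall was in Slc26a10, of an anion exchanger family. It had 695, 167, 31.1 and 312 scaled counts in DKO-labelled libraries, against 7240.5, 7735, 6592 and 4236 in controls (log2 -5.09 ± 0.56, limma adjusted p = 7.32e-07). Its DKO-labelled libraries differed widely among themselves, with library 2 highest and library 4 lowest. Xdh, which encodes xanthine oxidoreductase, had 5566, 3607, 3658 and 3031 scaled counts in DKO-labelled libraries, against 24243, 30899, 18299.7 and 13269.5 in controls (log2 -2.42 ± 0.23). The epoxide hydrolase gene Ephx1 had 1817, 1039.7, 1252 and 1243 scaled counts, against 7690.2, 8620.1, 6774 and 4644 in controls (log2 -2.37 ± 0.21). Slc9a3r2, which encodes the scaffold protein NHERF2, had 4251, 3282, 2989 and 3422 scaled counts, against 17524, 22828, 15578 and 10387 in controls (log2 -2.21 ± 0.24). In each of these, control library 4 was the lowest control. Jam2, a junctional adhesion gene, had 8126, 5252, 3912 and 5532 scaled counts in DKO-labelled libraries, against 25075, 25122, 24666 and 21965 in controls (log2 -2.13 ± 0.15). Cyp1a1, a xenobiotic-metabolising cytochrome P450 gene and a target of the aryl hydrocarbon receptor, had 12.2, 2.47, 4.57 and 2.12 scaled counts, against 519, 342, 219.9 and 496 in controls (log2 -6.14 ± 0.40). The receptor gene Ahr itself had 1202, 725, 592 and 818 scaled counts, against 4600.1, 4340.4, 4148 and 3379.7 in controls (log2 -2.34 ± 0.16), and the repressor gene Ahrr averaged 9.53 ± 3.35 scaled counts, against 30.5 ± 6.81 (log2 -1.62 ± 0.28). All these genes had DKO-labelled libraries wholly below the controls.

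Nearly all measured genes of mitosis and DNA replication were higher in the DKO-labelled libraries. All 30 tested spindle and motor genes were called higher and 0 lower (median log2 2.92), 26 of 27 kinetochore genes were higher and 0 lower (2.46), and 32 of 35 DNA replication genes were higher and 0 lower (1.08), where 19% of all tested genes were called higher and their median was -0.03. The promoters of mitotic genes are known for a CCAAT box and a cell cycle homology region, and 4 of them are shown, Cdk1, Ccnb2, Plk1 and Aurka, as called genes whose windows hold both motifs. Each window runs from 250 bases before to 50 bases after the RefSeq start on build GRCm38.p6, 5′ to 3′ along the gene, with capitals for CCAAT or ATTGG and for TTTGAA or TTCAAA, the motifs searched on both strands.
Cdk1, chr10:69352863-69353162 (minus strand): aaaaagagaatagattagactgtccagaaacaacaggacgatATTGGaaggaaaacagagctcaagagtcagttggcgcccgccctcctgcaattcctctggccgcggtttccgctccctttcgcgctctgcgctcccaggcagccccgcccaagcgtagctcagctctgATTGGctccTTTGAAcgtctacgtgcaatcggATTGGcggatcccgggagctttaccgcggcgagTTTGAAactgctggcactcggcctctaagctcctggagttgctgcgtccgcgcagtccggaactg
Ccnb2, chr9:70421505-70421804 (minus strand): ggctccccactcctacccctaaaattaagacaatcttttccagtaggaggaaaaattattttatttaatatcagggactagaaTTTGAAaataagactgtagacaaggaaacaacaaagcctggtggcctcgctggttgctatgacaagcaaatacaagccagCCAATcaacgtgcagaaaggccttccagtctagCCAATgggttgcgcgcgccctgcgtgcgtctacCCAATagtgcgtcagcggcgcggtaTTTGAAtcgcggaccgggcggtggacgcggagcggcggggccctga
Plk1, chr7:122159185-122159484 (plus strand): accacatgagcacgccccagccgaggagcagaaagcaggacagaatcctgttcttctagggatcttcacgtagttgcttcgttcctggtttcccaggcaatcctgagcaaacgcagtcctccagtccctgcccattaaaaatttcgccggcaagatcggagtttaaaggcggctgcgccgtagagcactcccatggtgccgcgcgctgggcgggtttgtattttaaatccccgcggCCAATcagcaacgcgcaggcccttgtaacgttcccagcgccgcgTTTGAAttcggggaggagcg
Aurka, chr2:172370521-172370820 (minus strand): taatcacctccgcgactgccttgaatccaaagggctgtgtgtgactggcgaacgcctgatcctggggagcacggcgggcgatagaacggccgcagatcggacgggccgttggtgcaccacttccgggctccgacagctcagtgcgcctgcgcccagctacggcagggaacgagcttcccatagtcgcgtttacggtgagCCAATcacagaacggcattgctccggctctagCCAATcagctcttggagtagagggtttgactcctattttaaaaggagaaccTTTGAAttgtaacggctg
TTTGAA on either strand was in the window of 23 of 26 (88.5%) spindle and motor genes, 10 of 21 (47.6%) kinetochore genes and 4 of 30 (13.3%) replication genes, and in 2082 of 13645 (15.3%) of all tested genes with a window. CCAAT on either strand was in 18 of 26 (69.2%), 14 of 21 (66.7%) and 18 of 30 (60%) of the same lists in that order, and in 5697 of 13645 (41.8%) of all. The CACCC-like letters CCNCACCC were in 376 of 1340 (28.1%) of the genes called at least 2-fold lower, 207 of 819 (25.3%) of those called at least 2-fold higher, and 3172 of 13645 (23.2%) of all. These matches describe letters in a window, without a test.

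The master kinase of mitosis, Cdk1 (chromosome 10, 69336635 to 69352938), had 1953, 2049, 1573 and 2565 scaled counts in DKO-labelled libraries, against 153, 90.9, 187 and 463 in controls (log2 3.42 ± 0.31, limma adjusted p = 7.89e-08). Its cyclin partner Ccnb1 had 435, 457, 338 and 602 scaled counts, against 22.2, 21.8, 37.4 and 106 in controls (log2 3.55 ± 0.34). The proliferation marker Mki67 had 14635, 12931, 7876 and 16784 scaled counts, against 1467, 631, 1665 and 4677 in controls (log2 2.94 ± 0.39). In each of them control library 4 was the highest control and library 4 the lowest of the DKO-labelled, and the groups did not overlap. The topoisomerase gene Top2a had 9468, 8188, 5103 and 11071 scaled counts in DKO-labelled libraries, against 857, 415, 1004 and 2766 in controls (log2 3.03 ± 0.37). The mean log2 level of the 30 spindle genes was 9.88, 9.85, 9.31, 10.14 in the 4 DKO-labelled libraries and 6.88, 5.87, 7.05, 8.23 in the 4 controls. The spread of this level was therefore wider among controls than among the DKO-labelled libraries. Further spindle genes that rose were Aurka and Aurkb, mitotic kinases, by 2.7 ± 0.27 and 3.0 ± 0.34, the kinesin genes Kif4 and Kif11 by 2.39 ± 0.24 and 3.16 ± 0.38, Racgap1, of the central spindle, by 2.59 ± 0.26 and Incenp, of the chromosomal passenger complex, by 1.87 ± 0.16.

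**Figure D2:**
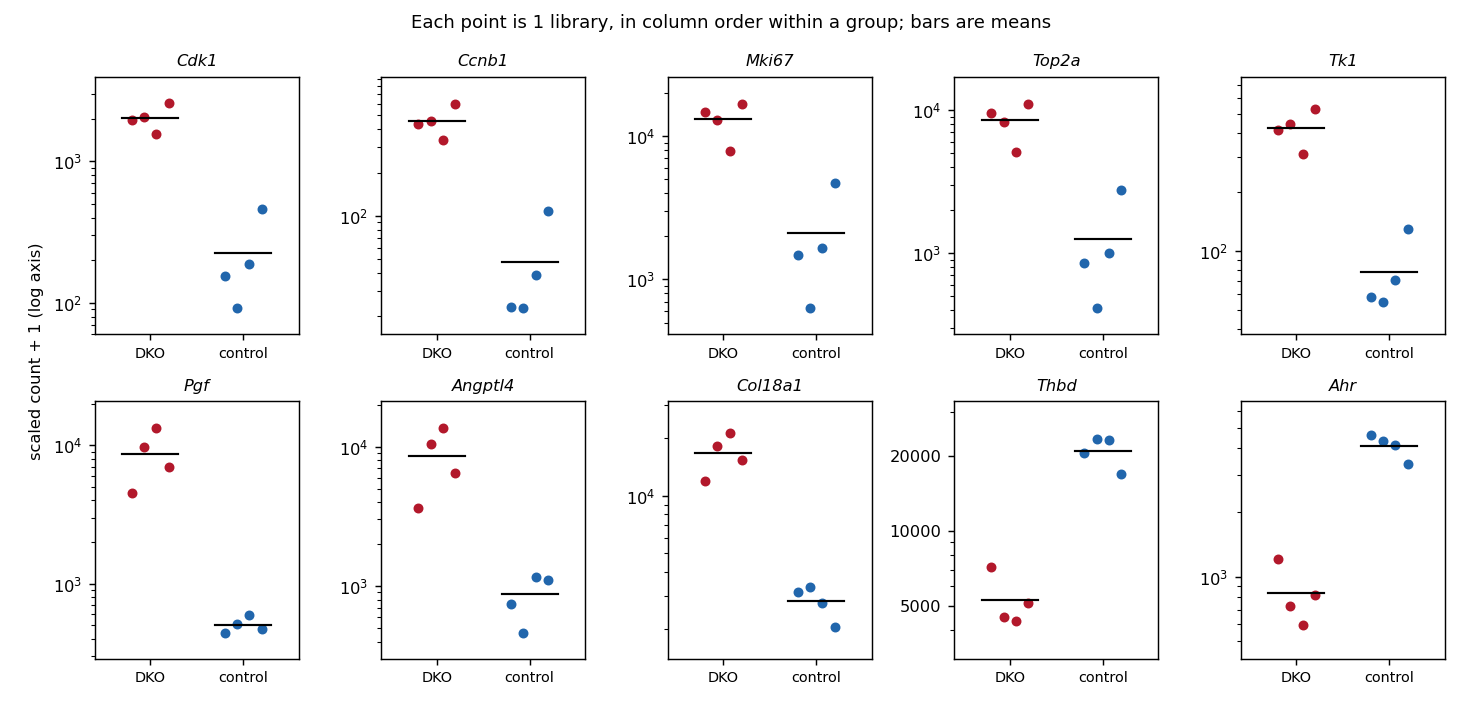
Scaled counts + 1 (log axis) of 10 genes in each DKO-labelled (red) and control (blue) library, with bars at the group means. The 2 groups do not overlap in any panel. In the division genes Cdk1, Ccnb1, Mki67, Top2a and Tk1 control library 4 is the highest control and DKO-labelled library 4 the lowest of its group.

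At the kinetochore, where chromosomes attach to the spindle, Cenpi rose by 2.87 ± 0.30, Zwilch by 2.15 ± 0.23 and Knstrn by 2.75 ± 0.27. The member that was not called was Hjurp, a chaperone of the centromeric histone, at 0.21. In replication the thymidine kinase gene Tk1 had 410.2, 443, 311 and 526 scaled counts in DKO-labelled libraries, against 56.8, 53.3, 70.1 and 128 in controls (log2 2.51 ± 0.23). Tyms, the thymidylate synthase gene, rose by 1.67 ± 0.14, Rrm1, of ribonucleotide reductase, by 1.23 ± 0.12 and the ligase gene Lig1 by 1.36 ± 0.12. The replication members without a call were Pcna, the sliding clamp, at 0.26, and the polymerase subunits Pola2 and Pold1, at -0.13 and -0.2. Of 26 DNA repair genes 19 were higher and 1 lower (median 1.46). The recombination genes Rad51ap1, Fanca, Rad18 and Blm rose by 2.32, 2.23, 1.75 and 1.44, and the damage kinase gene Atm was the one lower member, at -0.4 ± 0.14, a call lost at -0.42 to -0.24 without DKO-labelled library 3 or 4 or control library 1, 3 or 4. Leaving out DKO-labelled library 4 brought a call for Hjurp (0.33) and Pcna (0.33), as did leaving out control library 3 for Pcna (0.37).

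Of 33 genes that set the division cycle 24 were higher and 2 lower (median 0.86). The S phase and mitotic cyclin genes were among the rises, while Ccnd2 and Ccnd3, of the D cyclins that act in G1, had no call at -0.02 and 0.17, and Ccnd1 was higher by 0.43 ± 0.13, a call lost at 0.35 to 0.36 without DKO-labelled library 2 or 5 or control library 2. The lower members were Rbl2, of the retinoblastoma pocket protein family of resting cells (-0.31 ± 0.09), and the cyclin kinase inhibitor gene Cdkn1c. Cdkn1c had 641, 401, 463 and 408 scaled counts in DKO-labelled libraries, against 2422, 2693, 2010.1 and 1649 in controls (log2 -2.2 ± 0.15). The other inhibitor genes did not follow it, with Cdkn1a higher by 0.83 ± 0.23 and Cdkn1b at 0.1 without a call. Among 22 targets of the stress factor p53 10 were higher and 3 lower (median 0.36), among them the death receptor gene Eda2r at 1.23 and Zmat3 at 1.21, with Perp at -1.08 and Fas at -0.78.

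Genes of protein synthesis and turnover rose by smaller steps. Of 20 cytosolic tRNA synthetase genes 18 were higher and 1 lower (median 0.52). Gars, which charges glycine tRNA, had 4928, 5385, 5538 and 5586 scaled counts in DKO-labelled libraries, against 2475, 2475, 2445 and 2591 in controls (log2 1.1 ± 0.07). The lower member was Wars, the tryptophan enzyme that interferon also induces, with 2656, 2024, 1924 and 2312 scaled counts in DKO-labelled libraries, against 4239, 5282, 4349.9 and 3909 in controls (log2 -1.0 ± 0.11). Proteasome subunits showed a like division, 29 higher and 3 lower of 36 (median 0.64). Psmd14, Psmd8 and Psmc4 of the regulatory particle rose by 1.2 ± 0.09, 1.11 ± 0.09 and 1.1 ± 0.10. The lower ones were Psmb8, Psmb9 and Psmb10 (-0.54, -1.1 and -1.07), the catalytic subunits of the immunoproteasome, while the constitutive ones they replace, Psmb5, Psmb6 and Psmb7, were higher (0.65, 0.46 and 0.94).

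Ribosome biogenesis genes were higher in 17 of 30 cases and lower in 0 (median 0.38), with the snoRNP gene Nhp2 at 1.01 ± 0.13, Ltv1 at 1.04 ± 0.10 and the nucleophosmin gene Npm1 at 0.67 ± 0.09. The ribosomal protein genes themselves had 7 higher and 1 lower of 31 (median 0.17), close to the background share of 19% on the higher side, and 19 higher under the same-median scaling. Splicing genes were higher in 18 and lower in 2 of 30 (median 0.39). The core snRNP genes Snrpd1 and Snrpe were at 1.15 ± 0.13 and 0.96 ± 0.10, and the lower members were Srsf5 and Ddx5, at -0.31 and -0.32.

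Supply pathways changed in parts. Amino acid transporters had 11 higher and 3 lower of 21 (median 0.32). Slc7a5, the light chain of the large neutral amino acid carrier LAT1, had 1750.4, 2756, 3295 and 2211 scaled counts in DKO-labelled libraries, against 349.7, 358, 538 and 392 in controls (log2 2.59 ± 0.18), while its partner Slc3a2 was at 0.00 without a call. The cystine carrier gene Slc7a11 rose by 2.36 ± 0.30. The taurine transporter gene Slc6a6 went the other way, with 9359.5, 7566, 7622 and 8083 scaled counts in DKO-labelled libraries, against 29840.5, 29178, 26730.2 and 20191 in controls (log2 -1.69 ± 0.12). In serine, one-carbon, proline and asparagine synthesis 7 of 16 were higher and 0 lower (median 0.31). Mthfd2, of mitochondrial folate metabolism, rose by 2.51 ± 0.24 and Psat1, of serine synthesis, by 1.8 ± 0.22.

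Cholesterol synthesis genes were higher in 16 and lower in 1 of 24 (median 0.45). Sqle, the squalene epoxidase gene, had 654, 779, 645 and 826 scaled counts in DKO-labelled libraries, against 147, 107, 175 and 172 in controls (log2 2.28 ± 0.16). The farnesyl diphosphate synthase gene Fdps rose by 1.43 ± 0.14. The exception was Tm7sf2, a sterol reductase gene, at -0.56 ± 0.21, a call lost at -0.60 to -0.43 without DKO-labelled library 2, 3 or 5 or control library 1, 2 or 3. CCAAT was in the promoter window of 16 of 16 (100%) list members with a window, against the 41.8% of all genes given above.

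Mitochondrial genes encoded in the nucleus changed little in size. In oxidative phosphorylation 18 of 36 were higher and 2 lower (median 0.26), with 29 and 1 under the same-median scaling, and in the citric acid cycle 8 of 17 were higher and 1 lower (median 0.18). Fatty acid handling, a main task of heart endothelium, divided into 12 higher and 8 lower of 26. Angptl4, which encodes a secreted inhibitor of lipoprotein lipase, had 3609, 10511, 13672 and 6417 scaled counts in DKO-labelled libraries, against 748, 462, 1166 and 1108 in controls (log2 3.21 ± 0.35). The binding protein genes Fabp5 and Fabp4 rose by 1.2 ± 0.12 and 0.61 ± 0.15, and the lipase anchor gene Gpihbp1 by 0.99 ± 0.18. The fatty acid transporter gene Slc27a1 had 135, 90.1, 128 and 86 scaled counts in DKO-labelled libraries, against 471, 596, 687 and 1068 in controls (log2 -2.63 ± 0.29), and the scavenger receptor gene Cd36 had no call at -0.16.

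The actin cytoskeleton was higher in 25 and lower in 4 of 36 genes (median 0.86). The non-muscle myosin gene Myh10 had 6556, 7551, 8375 and 7284 scaled counts in DKO-labelled libraries, against 2035, 1846, 2329 and 2477 in controls (log2 1.78 ± 0.10). Profilin and cofilin, which turn over filaments, rose at Pfn1 by 1.28 ± 0.09 and at Cfl1 by 1.12 ± 0.08, the GTPase gene Rhoa by 0.96 ± 0.07, and the branching complex gene Arpc2 by 1.02 ± 0.07. The 4 lower members were the smooth muscle genes Myl9 (-1.13) and Tpm2 (-0.68), the exchange factor gene Arhgef15 (-0.96) and Actg1 (-1.21), a gene with many processed copies, which makes its value uncertain. Of 17 tubulin and microtubule genes 12 were higher and 3 lower (median 0.79). Tubb6 had 2749, 3413, 3711 and 3372 scaled counts in DKO-labelled libraries, against 261, 299, 430 and 432 in controls (log2 3.24 ± 0.16). Tubb2b rose by 2.76 ± 0.19 and the microtubule-binding gene Map1b by 1.7 ± 0.10.

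Matrix genes moved by type. Collagen genes were higher in 14 and lower in 4 of 21 (median 0.73), and their summed level was 378518 ± 61451 scaled counts in DKO-labelled libraries and 149739 ± 12572 in controls. The basement membrane pair Col4a1 and Col4a2 made up most of that sum. Col4a1 had 167325, 237617, 236528 and 196408 scaled counts in DKO-labelled libraries, against 76705, 90876, 78392 and 76855 in controls (log2 1.36 ± 0.13). Col18a1, the source of endostatin, had 11947, 18299, 21385 and 15436 scaled counts in DKO-labelled libraries, against 3146, 3329.5, 2738 and 2041 in controls (log2 2.57 ± 0.19). Within type IV the chains differed, since Col4a3 was lower at -1.15 ± 0.11 and Col4a5 had no call at -0.27, but was called at -0.35 without DKO-labelled library 4. The transmembrane collagen gene Col13a1 was the most lowered collagen gene, with 16.6, 16.1, 8.83 and 10.6 scaled counts in DKO-labelled libraries, against 91.4, 128, 109 and 88.5 in controls (log2 -2.94 ± 0.22).

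Of 30 integrin, laminin and nidogen genes 14 were higher and 8 lower (median 0.34). Itga5, the chain of the fibronectin receptor, had 9132, 15664, 15213 and 11131 scaled counts in DKO-labelled libraries, against 3216, 3052, 3515 and 3156 in controls (log2 1.95 ± 0.13), and Itga2, of a collagen receptor, rose by 2.4 ± 0.15. The epithelial integrin genes Itgb4 and Itgb6 were lower, at -2.11 and -2.14. The laminin chain genes Lamb1 and Lamc1 rose (1.6 and 1.29), and Lamb2, the chain that can replace Lamb1, was lower (-0.88). Matrix proteases and their inhibitors had 15 higher and 6 lower of 30 (median 0.53). The membrane collagenase gene Mmp14 had 4798, 7316, 8646 and 6014 scaled counts in DKO-labelled libraries, against 662, 658, 676 and 635 in controls (log2 3.31 ± 0.13). Timp1, an inhibitor of such proteases, had 255, 333, 444 and 304 scaled counts in DKO-labelled libraries, against 32.1, 37.6, 27.8 and 11.4 in controls (log2 3.66 ± 0.32), while Timp3 had no call at -0.27.

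In the VEGF and PDGF families 4 of 16 genes were higher and 7 lower, and the median of -0.21 turned to 0.05 under the same-median scaling (5 and 4). The ligand genes divided: Pgf and Pdgfa (1.37 ± 0.11) rose, while Vegfc, the lymphatic growth factor, fell by 1.41 ± 0.16 on the log2 scale. The receptor gene Kdr, which transduces most VEGF signals, was lower at -0.54 ± 0.11, and the coreceptor gene Nrp2 higher at 0.66 ± 0.09. The BMP and TGF-beta list had 15 higher and 17 lower of 38, and 15 and 14 with that scaling. Among ligands the activin subunit gene Inhbb had 1101, 3145, 2903 and 1963 scaled counts in DKO-labelled libraries, against 84, 76.4, 119.6 and 94.8 in controls (log2 4.5 ± 0.26). Bmp2 and Bmp4 rose by 1.82 ± 0.12 and 1.32 ± 0.16. Among receptors Tgfbr2 rose by 0.92 ± 0.10, and Acvrl1, the endothelial receptor for BMP9, was lower at -1.41 ± 0.17. The direct BMP target genes Id1 and Id3 were lower at -1.62 ± 0.18 and -0.98 ± 0.19, as were the inhibitory Smad genes Smad6 and Smad7 at -0.84 and -0.92, and Smad9 had 54.3, 29.6, 21.6 and 29.7 scaled counts in DKO-labelled libraries, against 269, 223, 196 and 140.3 in controls (log2 -2.62 ± 0.24).

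Wnt genes were lower in 14 and higher in 1 of 39 cases (median -0.27, -0.03 under the same-median scaling). The ligand gene Wnt9b had 45.5, 25.9, 2.74 and 25.5 scaled counts in DKO-labelled libraries, against 256, 245, 213 and 171 in controls (log2 -3.55 ± 0.49). Axin2 and Nkd1, feedback targets of the pathway, were lower at -1.43 ± 0.22 and -1.19 ± 0.15, and the one higher member was the inhibitor gene Dkk2, at 0.99 ± 0.20. In the FGF and EGF families 7 of 25 were higher and 7 lower. The receptor genes parted here, with Fgfr3 at 529.9, 254, 189 and 244 scaled counts in DKO-labelled libraries, against 3381, 3835, 2642 and 1692 in controls (log2 -3.29 ± 0.31). Erbb3 was lower at -1.93 ± 0.22, Fgfr2 was higher at 1.7 ± 0.23, and the ligand gene Ereg (epiregulin) rose by 3.26 ± 0.38. Among 40 guidance genes 10 were higher and 15 lower, and 15 and 8 with that scaling, where the median of -0.18 turned to 0.09. The semaphorin genes Sema3a and Sema6d rose (1.26 and 0.85), and Sema3b and the ephrin receptor gene Epha4 were lower (-1.47 and -1.32).

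Transcription factor genes of endothelium moved both ways, 13 higher and 11 lower of 34, with 19 and 5 under the same-median scaling and 9 and 13 with quantile normalisation. The ETS family gene Etv4 had 149, 209.9, 197 and 192 scaled counts in DKO-labelled libraries, against 30.9, 19.4, 20.5 and 29.1 in controls (log2 2.87 ± 0.26), while its relatives Etv1 and Etv5 were lower, at -0.72 and -0.66. Meox1 rose by 0.95 ± 0.11 and Hey2, a Notch target of arteries, was lower at -1.08 ± 0.12. Genes of nuclear receptors and their partners were lower in 15 and higher in 3 of 25 (median -0.58). The mineralocorticoid receptor gene Nr3c2 had 353, 232, 243 and 199.7 scaled counts in DKO-labelled libraries, against 1182, 1344, 1311 and 1226 in controls (log2 -2.33 ± 0.13). The thyroid hormone receptor gene Thrb was lower at -2.29 ± 0.22, and the higher members were Vdr, Esr1 and Nr5a2 (2.38, 1.37 and 0.97), where Esr1 lost its call, at 1.11, without control library 3.

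Circadian clock genes were lower in 10 and higher in 2 of 19 (median -0.79), and the median of the K2KO libraries against the same controls was -0.62, with no member called there. In K4KO the median was -0.26, again with no member called. The summed level of the list was 34190 to 40007 in DKO-labelled libraries and 49016 to 61483 in controls. The K4KO libraries had sums of 58490, 58141, 59677 and 26798. The output factor gene Dbp had 1726, 855, 584 and 1111 scaled counts in DKO-labelled libraries, against 4185, 4812, 3706 and 2889 in controls (log2 -1.95 ± 0.48). Hlf was lower at -2.16 ± 0.44 and Per3 at -1.5 ± 0.30. Arntl, the positive arm of the clock, had 266, 503, 362 and 268 scaled counts in DKO-labelled libraries, against 115, 103, 105 and 154 in controls, without a call (log2 1.51 ± 0.60, limma adjusted p = 0.0536). Its DKO-labelled libraries all lay above the controls, but the SE was wide. The labels give no time of day for the cell isolation.

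Signals of inflammation were divided. In the TNF and NF-kB list 12 of 33 were higher and 4 lower (median 0.25). The costimulatory receptor gene Tnfrsf9 had 243, 417, 437 and 319.7 scaled counts in DKO-labelled libraries, against 13.6, 3.64, 4.83 and 11.4 in controls (log2 5.37 ± 0.36). Tnf and the feedback gene Tnfaip3 rose by 1.3 ± 0.21 and 0.94 ± 0.15, while the receptor genes Tnfrsf1b and Cd40 were lower at -1.36 ± 0.12 and -1.35 ± 0.11, and the NF-kB subunit genes Nfkb1 and Rela had no call at 0.17 and -0.04. Complement genes were lower in 8 and higher in 3 of 21, and in 6 and 6 under the same-median scaling. C1ra, of the first component, was lower at -1.15 ± 0.13, and Clu higher at 0.69 ± 0.13. Among genes tied to Klf2 or Klf4 in endothelium 14 of 31 were higher and 10 lower (median 0.30). The share called was 77.4%, beside 38.3% of all genes. At least 2-fold, 10 members were called higher and 9 lower, and the log2 changes of the list ran from -2.83 to 2.97. Thrombomodulin, Thbd, had 7197, 4512, 4338 and 5144 scaled counts in DKO-labelled libraries, against 20584, 23406, 23164 and 16906 in controls (log2 -2.01 ± 0.14), whereas the nitric oxide synthase gene Nos3 averaged 7158 ± 607 scaled counts in DKO-labelled libraries and 9414 ± 1921 in controls, without a call (log2 -0.37 ± 0.16, limma adjusted p = 0.0748), though it was called at -0.52 without control library 4.

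Ion channel genes had 13 higher and 14 lower of 40 (16 and 14 under the same-median scaling). The inward rectifier gene Kcnj2 had 6276, 6610.2, 6823 and 5490.2 scaled counts in DKO-labelled libraries, against 1531, 1286, 1500.3 and 1843 in controls (log2 2.04 ± 0.13). Clic6 had 53.2, 207, 288 and 101 scaled counts in DKO-labelled libraries, against 1.24, 0, 1.21 and 2.53 in controls. The aquaglyceroporin gene Aqp7 was lower at -1.32 ± 0.10, and Trpv4, a channel that responds to stretch and flow, at -1.78 ± 0.24, while the flow sensor gene Piezo1 had no call at 0.32. G protein-coupled receptors were called higher in 6 and lower in 9 of 41, a share of 36.6% that lies close to the 38.3% of all genes. Under the same-median scaling 12 were higher and 6 lower, and the median of -0.11 turned to 0.15. Lpar4, a lysophosphatidic acid receptor gene, rose by 1.9 ± 0.17, and Ramp3, of the adrenomedullin receptor, was lower at -1.73 ± 0.18. Caveolar genes were higher in 7 and lower in 3 of 11, with Cav1, the main coat protein, at 0.75 ± 0.11. Lysosome and autophagy genes were higher in 8 and lower in 5 of 28, a share called of 46.4% beside the 38.3% of all genes. Under the same-median scaling 14 of them were higher and 0 lower. The protease gene Lgmn rose by 1.24 ± 0.11 and the lysosomal regulator gene Tfeb was lower at -0.72 ± 0.20.

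**Figure D3:**
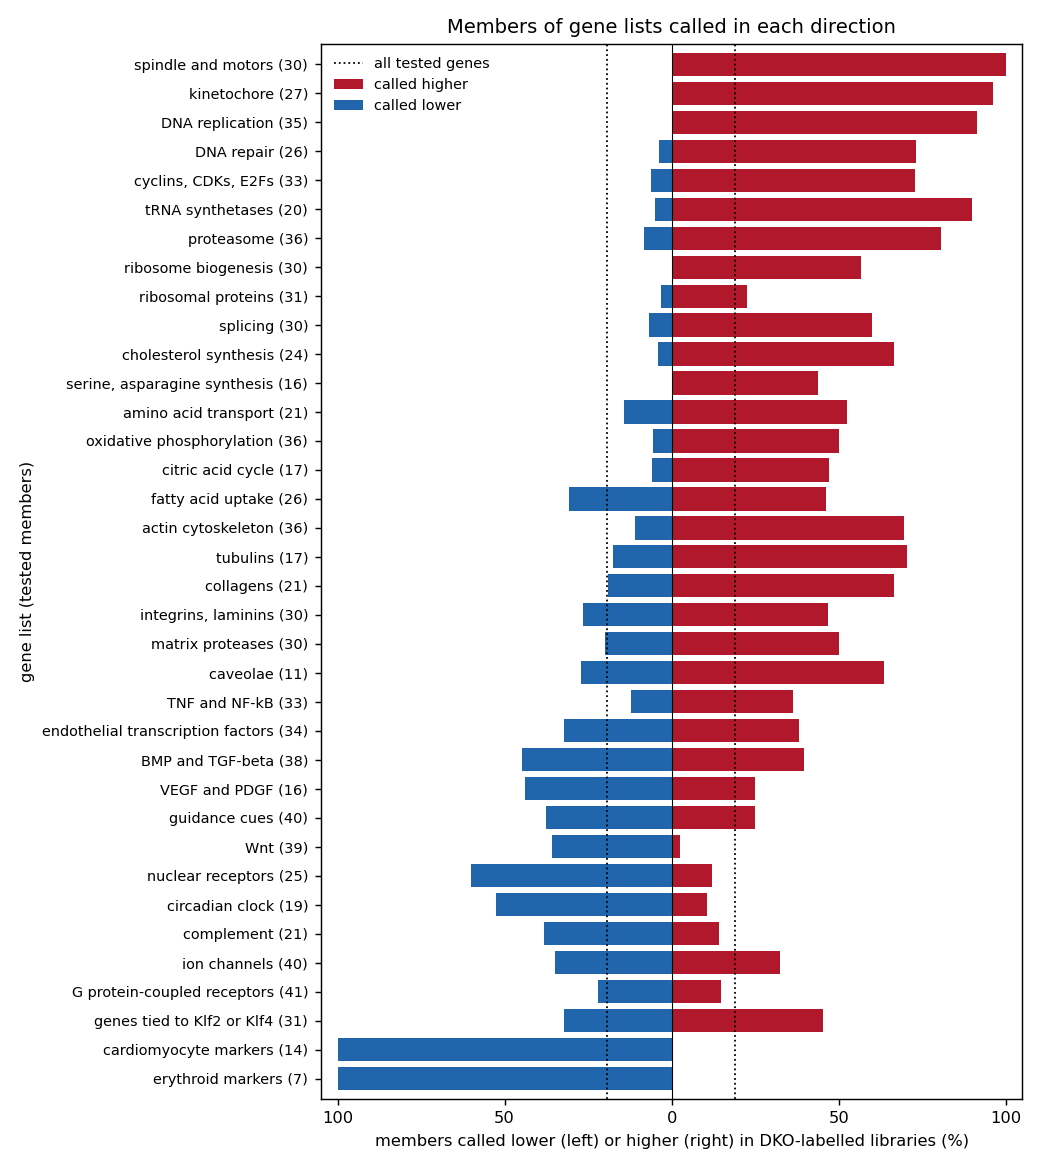
Share of the tested members of 36 gene lists called lower (blue, left) or higher (red, right) in DKO-labelled libraries, with dotted lines at the shares of all tested genes, 19.3% lower and 19% higher. Division, proteasome and tRNA synthetase lists lie at the higher end, nuclear receptors (with partners) and clock at the lower, and cardiomyocyte and erythroid markers wholly on the lower side. Under the same-median scaling the guidance, VEGF and PDGF, BMP and TGF-beta, ion channel and G protein-coupled receptor lists turn to more calls higher than lower, and the endothelial factor list turns to more lower than higher with quantile normalisation.

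Among genes that do not encode proteins, H19, the imprinted long RNA, had 10470.3, 12412, 22344 and 13828 scaled counts in DKO-labelled libraries, against 4428, 2608, 3117 and 2460.5 in controls (log2 2.21 ± 0.23). Mhrt, an antisense transcript of the myosin locus of cardiomyocytes, had 267, 152, 50.9 and 169.9 scaled counts in DKO-labelled libraries, against 1024, 1030.2, 1094 and 2554 in controls (log2 -3.25 ± 0.42). The myosin gene Myh7, on the opposite strand, averaged 331 ± 187 scaled counts in DKO-labelled libraries and 193 ± 155 in controls, without a call (log2 1.06 ± 0.48, limma adjusted p = 0.0924). It was called higher, at 1.32 to 1.53, without DKO-labelled library 2 or control library 2 or 4, in the opposite direction to Mhrt and to the cardiomyocyte markers given below. The use of strand in counting is not stated, so the split of reads between the overlapping Mhrt and Myh7 is uncertain. Gm25360 had 2771, 3127, 3472 and 3155 scaled counts in DKO-labelled libraries, against 569.6, 439, 603 and 731 in controls (log2 2.44 ± 0.14). H19, Mhrt and Gm25360 parted the groups without overlap.

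The 4 DKO-labelled libraries differed in how far they lay from the controls. Over 1675 genes called at least 2-fold with a mean of at least 100 scaled counts in either group, a library's place was taken as the share of the way between the mean of the controls and the mean of the DKO-labelled libraries. The median place was 87.6%, 103%, 106% and 103% in DKO-labelled libraries 2 to 5, and -1.8%, -5.74%, 1.14% and 7.49% in controls 1 to 4. The mean of each group is 100% or 0% by definition, since these libraries chose the genes. Library 2 was the least shifted DKO-labelled library in 67.8% of the 894 lowered genes and 52.6% of the 781 raised ones. Library 4, the most deeply read, was the most shifted in 47.7% and 44.8%, and library 5 in 32.7% and 43.3%, in the same order. In 36.5% of the raised genes library 4 was the least shifted. The mean log2 level of DNA replication genes was 9.45, 9.37, 8.90, 9.67 in DKO-labelled libraries 2 to 5, and that of matrix proteases 9.52, 9.71, 9.91, 9.55, so library 4 was lowest in one list and highest in the other. Cytl1, which encodes a secreted protein, had 222, 39.5, 26.5 and 78.6 scaled counts in DKO-labelled libraries, against 1921, 1216, 1339.7 and 1061 in controls (log2 -4.34 ± 0.41). Akap5, a kinase anchor gene, had 1018, 643, 202 and 1028 scaled counts, against 1352, 1278, 1847 and 2379.5 in controls (log2 -1.45 ± 0.35). In both, library 4 was the lowest of the DKO-labelled libraries.

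**Figure D4:**
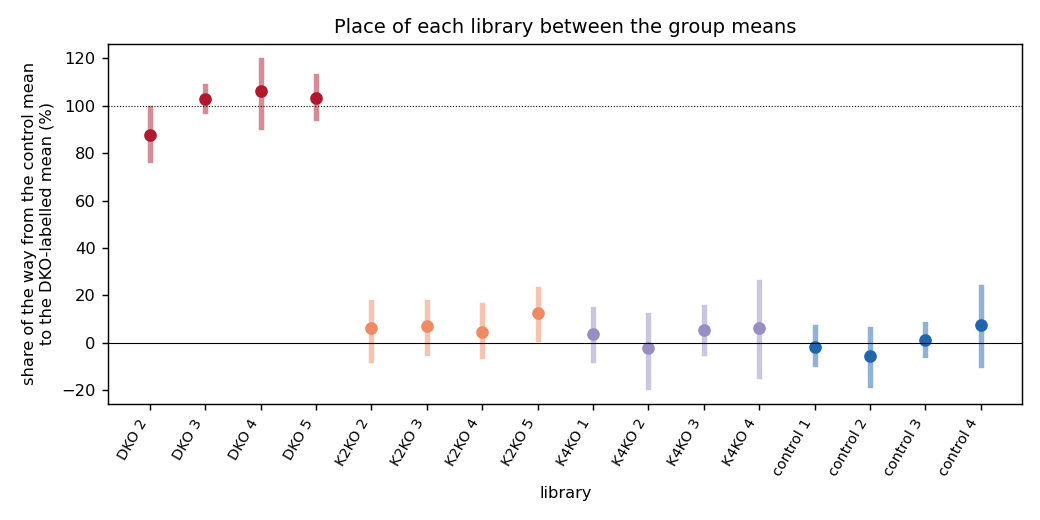
Median (point) and interquartile range (bar) over 1675 genes of each library's place between the control mean, 0%, and the DKO-labelled mean, 100%, for the DKO-labelled, K2KO, K4KO and control libraries in that order. The genes were chosen from the DKO-labelled and control libraries, so these lie at 100% and 0% on average, and the 8 single knockout libraries have medians of -2.0 to 12.5%.

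The single knockouts share the 4 control libraries with this comparison, so their values are given side by side only. At the same threshold limma called 40 genes in K2KO (0.168%) and 15 in K4KO (0.063%). Of these, 32 of the K2KO set and 11 of the K4KO set were also called in DKO-labelled libraries, in either direction, where 38.3% of all tested genes were called. Gadd45b, Caprin2, Ppp1r10, Icam1 and Hes1 were called higher in K2KO and lower in DKO-labelled libraries. A few transcripts moved by large steps in K2KO and DKO-labelled libraries alike. The gene model Gm7809 on chromosome 17 averaged 1556 ± 135 in DKO-labelled, 679 ± 76.5 in K2KO, 85.6 ± 83.2 in K4KO and 16.9 ± 2.82 in control libraries. Its K4KO libraries differed among themselves, at 13.1, 16.1, 174 and 139 scaled counts. Tdpx-ps1, a processed pseudogene on chromosome 1, averaged 30.9 ± 4.39 in DKO-labelled, 21.6 ± 2.39 in K2KO, 3.96 ± 3.02 in K4KO and 0 ± 0 in control libraries. The DKO-labelled mean of Tdpx-ps1 was at least 33.5-fold higher than the level of 3 reads over the control group. Close copies exist for pseudogenes, so the source of the reads is uncertain.

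Of the 40 genes called in K2KO 6 lay on chromosome 8, Klf2 itself among them, and that chromosome holds 4.86% of all tested genes. Calr3, a calreticulin gene 0.105 Mb from Klf2, averaged 77 ± 13 in DKO-labelled, 132 ± 13.8 in K2KO, 26.7 ± 13 in K4KO and 14.8 ± 2.16 in control libraries. Fam32a, 0.0993 Mb from Klf2, averaged 1425 ± 81.7 in DKO-labelled, 1341 ± 32.4 in K2KO, 1905 ± 52.5 in K4KO and 1975 ± 133 in control libraries. Mri1, a gene of methionine salvage 11.9 Mb away, averaged 92 ± 14 in DKO-labelled, 97 ± 13.6 in K2KO, 213 ± 46.5 in K4KO and 235 ± 16.2 in control libraries. In these 3 genes the K2KO and DKO-labelled means lay on the same side of the controls. Man2b1, 12.8 Mb away, was also called lower in both, at -0.70 in K2KO and -0.41 in DKO-labelled libraries. Mast1, 12.6 Mb away, was called higher in K2KO, at 3.03, and had no call in DKO-labelled libraries, at 0.36. Klf2 itself was called lower in K2KO, at -1.06, but not in DKO-labelled libraries. Of 15 genes called in K4KO 5 lay on chromosome 4, which carries Klf4 and holds 6.58% of all tested genes. The chemokine gene Ccl27a, 13.8 Mb from Klf4, averaged 1.16 ± 1.17 in DKO-labelled, 27.5 ± 3.74 in K2KO, 3.35 ± 1.86 in K4KO and 26 ± 9.2 in control libraries. Ankrd6, 22.7 Mb from Klf4, averaged 103 ± 17.8 in DKO-labelled, 106 ± 3.09 in K2KO, 295 ± 15.4 in K4KO and 109 ± 18.8 in control libraries, so its K4KO rise had no counterpart in the DKO-labelled mean. Within 1 Mb of Klf2, 11 of 56 tested genes were called higher and 15 lower in DKO-labelled libraries, a share called of 46.4% beside the 38.3% of all genes, with 19.6% beside 19% for those higher and 26.8% beside 19.3% for those lower. Within 1 Mb of Klf4, 4 of 9 were higher and 1 lower.

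Adhesion and matrix genes called in K2KO went further in DKO-labelled libraries in some cases and the other way in others. Npnt, the integrin ligand gene of nephronectin, averaged 648 ± 104 in DKO-labelled, 299.9 ± 43.1 in K2KO, 203 ± 27.4 in K4KO and 137 ± 44.1 in control libraries. Adamts4, an aggrecanase gene, averaged 3249.6 ± 888 in DKO-labelled, 1947 ± 292 in K2KO, 769.8 ± 236 in K4KO and 609 ± 375 in control libraries. Icam1, the leukocyte adhesion receptor gene, averaged 4106 ± 225 in DKO-labelled, 11474 ± 1054 in K2KO, 4562 ± 876 in K4KO and 6206 ± 2157 in control libraries, with a log2 change of -0.54 in DKO-labelled and 0.94 in K2KO libraries. Hes1, a Notch target, averaged 2100.3 ± 224 in DKO-labelled, 4371 ± 505 in K2KO, 2409.9 ± 366 in K4KO and 2691 ± 400.3 in control libraries, with -0.35 and 0.70 in the same order. Both were called in limma in opposite directions (adjusted p of 0.0133 and 0.0194 for Icam1, 0.0267 and 0.0177 for Hes1). The DKO-labelled fall of Hes1 lost its call, at -0.28 to -0.26, without DKO-labelled library 5 or control library 3. The leukocyte adhesion genes Sele and Selp did not fall with Icam1. Sele averaged 5584 ± 264 in DKO-labelled, 2122 ± 244 in K2KO, 2022 ± 102 in K4KO and 1200 ± 364 in control libraries. Selp averaged 1483 ± 183, 1760 ± 216, 1464 ± 127 and 917 ± 257 in the same order. Sele and Selp were called higher in DKO-labelled libraries, by 2.27 and 0.72 on the log2 scale, and in K2KO, by 0.86 and 0.97. In K4KO Sele was also called higher, by 0.80, and Selp had no call at 0.71.

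**Figure D5:**
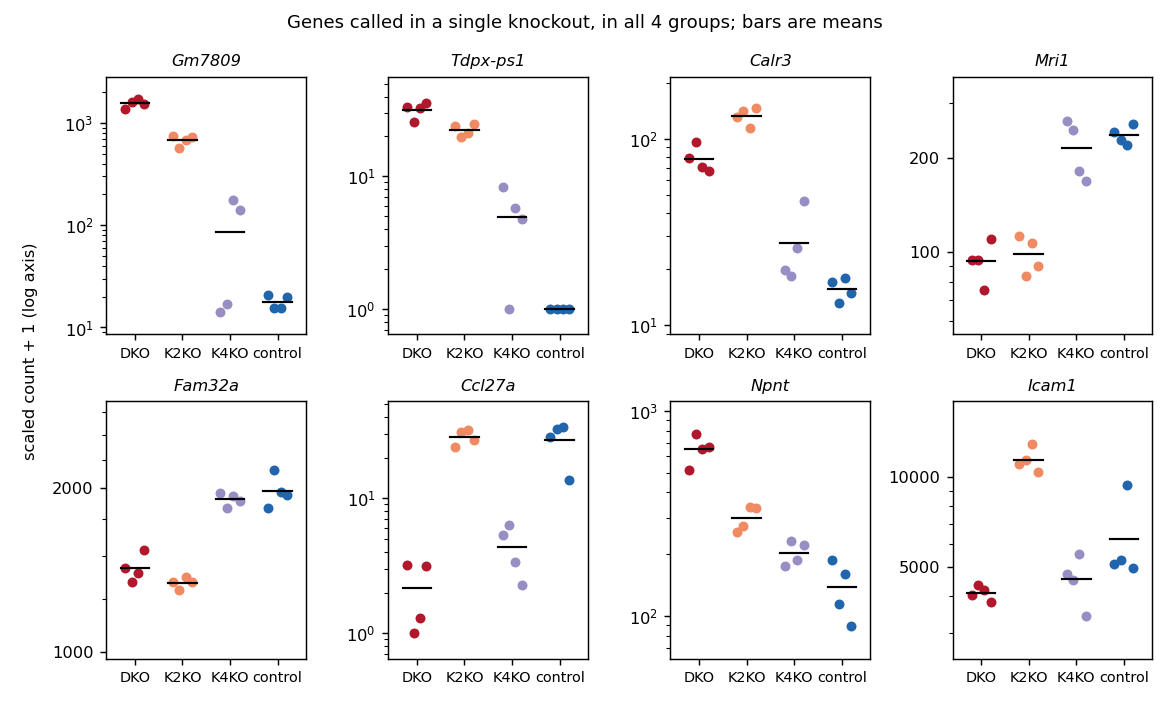
Scaled counts + 1 (log axis) of 8 genes in each DKO-labelled, K2KO, K4KO and control library, with bars at the group means. Gm7809 and Tdpx-ps1 are high in all 8 DKO-labelled and K2KO libraries, Ccl27a is low in all 8 DKO-labelled and K4KO libraries, and in Icam1 the DKO-labelled libraries lie below and the K2KO libraries above all controls.

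Markers of the labelled cell type and of other heart cells were measured beside these changes. Endothelial markers were high in all libraries, with a summed level of 360688 to 412673 in DKO-labelled libraries and 319907 to 409627 in controls. Of 14 such genes 5 were higher and 5 lower, and 5 and 1 under the same-median scaling, where the median of -0.19 turned to 0.08. The junction genes Cldn5 and Cdh5 rose by 1.45 ± 0.18 and 0.89 ± 0.10, and the angiopoietin receptor gene Tek was lower at -0.99 ± 0.10. All 14 cardiomyocyte markers were lower and 0 higher (median -1.88), with a summed level of 53495 to 90644 in DKO-labelled libraries and 237308 to 564386 in controls. Myh6, the main myosin of the adult mouse heart, had 9873, 6926, 5035 and 6556 scaled counts in DKO-labelled libraries, against 33349.5, 36188, 39124 and 62303 in controls (log2 -2.59 ± 0.23). None of the defining cardiomyocyte markers was at 0. All 7 erythroid markers were lower (median -2.02), with a summed level of 3955 to 6786 in DKO-labelled libraries and 18162 to 23846 in controls, and Hbb-bs had 4065, 3591, 4975 and 2975 scaled counts in DKO-labelled libraries, against 14151, 17517, 13306 and 17614 in controls (log2 -2.02 ± 0.19). Several of the largest falls named by level, Myh6, Tnnt2, Mybpc3, Ttn and Hbb-bs, are genes of these cells. In bulk RNA fewer cells of a type and less RNA per cell cannot be told apart.

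The remaining lists of other cells differed in direction, beside the 19.3% of all genes called lower and the 19% called higher. Of 11 lymphocyte markers 6 were lower and 0 higher, with a summed level of 439 to 522 in DKO-labelled libraries and 1226 to 1615 in controls. Of 7 neutrophil and platelet markers 4 were lower and 0 higher, with 491 to 835 in DKO-labelled libraries and 627 to 1173 in controls, and the neutrophil marker Ly6g was at 0 in all DKO-labelled libraries and at 1.24, 0, 0 and 1.26 scaled counts in controls. Of 10 markers of mural cells 3 were lower and 0 higher, with 76350.1 to 93462 in DKO-labelled libraries and 122543 to 131095 in controls, where Myh11 was at -1.38 ± 0.16 and Rgs5 at -0.67 ± 0.12. Macrophage markers had 2 of 10 lower and 0 higher, close to the share of all genes called lower, with 2718 to 5203 in DKO-labelled libraries and 3139.6 to 5563 in controls. Fibroblast markers had 3 higher, the collagen genes Col1a1, Col1a2 and Col3a1, and 3 lower of 10, with 13528 to 22599 in DKO-labelled libraries and 16572 to 19082 in controls. Of 4 lymphatic markers Flt4 was higher at 0.37 ± 0.13 and Prox1 lower at -0.72 ± 0.15, with a summed level of 8827 to 11301 in DKO-labelled libraries and 6811 to 9650.4 in controls. Of 4 mesothelial markers Msln, Upk3b and Lrrn4 were lower at means under 20 scaled counts, and Wt1 was higher with 2464, 3224, 4055 and 2849.7 scaled counts in DKO-labelled libraries, against 1565, 1273, 1917 and 1749 in controls (log2 0.94 ± 0.13), which made the summed level of that list 2472 to 4063 in DKO-labelled libraries and 1299 to 1949.7 in controls. Leaving out 1 library ended the calls of Col1a1 (0.58 to 0.68 without DKO-labelled library 3 or 4 or control library 1 or 3), of Flt4 (0.26 to 0.35 without DKO-labelled library 3 or 4 or control library 4) and of Upk3b (-1.67 to -1.12 without DKO-labelled library 4 or 5 or control library 1 or 3). The part of these cells in the other changes was not tested.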

How the data were processed

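The authors deposited 1 table of scaled counts per gene for 16 libraries, 4 for each of 4 genotypes; the submitters' processing notes list TopHat, Cuffdiff and build GRCm38, without versions. The counting tool, the annotation and any use of strand are not stated. The deposited values are a signal in scaled counts: in each library 100% of values were whole multiples of 1 step, within 0.001 reads, and dividing by that step gave whole reads. DKO and K2KO columns are numbered 2 to 5 while the sample titles run 1 to 4, so a column was matched to its group only. The deposited fold changes and p-values were not used.

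The test covered 23816 of 43629 genes, those reaching 1 scaled count in at least 4 libraries. Values were taken as log2(value + 1), so fold changes of low genes are understated, and were fitted with limma 3.58.1 (R 4.3.3, eBayes with trend) over all 16 libraries with a group term, which share 1 estimate of spread. Genes with a Benjamini-Hochberg adjusted p below 0.05 were called. On simulated data for DKO against control, with 50 of 23816 genes changed at each fold, the fit recovered 40% of genes at 1.5-fold, 86% at 2-fold, 98% at 4-fold and 100% at 8-fold, and 8.475% of its calls were false. The changed genes were drawn from those with a control mean of at least 100 scaled counts, so these recovery rates do not cover lower genes. The false share exceeded the level of 0.05 at which genes were called. All groups were simulated from control means and control spread, with few genes changed. That false share therefore need not hold for the data, where 38.3% of genes were called. DESeq2 1.42.0 and edgeR 4.0.16 on the recovered reads, other scalings, filters, pseudocounts and variance models, a replicate block and each library left out were run as alternatives. Lower bounds for genes at 0 set the empty group to 3 reads over the group, which covers counting error only. The labels state that each sample pooled 2 mice; p-values measure the spread between these samples.

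The members, the gene lists and the rule for named genes were chosen with earlier results of these data known. The rule took Klf2 and Klf4, the 10 largest rises and falls without overlap at a mean of at least 100, the 12 largest at a mean of at least 5000, up to 4 members of each list by p with its exceptions, the 5 largest changes each way of genes that do not encode proteins, genes at 0 in 1 group, and the 6 called genes that spread widest over DKO libraries. Other list members, Ahrr and the genes called in the single knockouts were named after their values were seen, and some genes taken by the rule are not reported here.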

Additional observations from a re-analysis of the deposited data

Results flagged for a closer look

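A single library stood apart from the other 3 of its group, by Dixon's criterion at the 95% level, in 28 of 546 groups of values examined, which is 5.13%, where chance gives about 1 in 20. DKO-labelled library 4 held 106 M reads, far more than the other DKO-labelled libraries.

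Among the DKO-labelled libraries, 1 library was high in scaled counts of Acvrl1 (2649), Epha4 (2401), Erbb3 (66.5), Ltv1 (751), Nkd1 (109), Rad51ap1 (767) and Vdr (36.6). A single DKO-labelled library was also high in the summed level of the complement (18814) list.

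Among the controls, 1 library was high in scaled counts of Adamts4 (1166), Col4a1 (90876), Icam1 (9437), Incenp (419), Itgb6 (247), Mhrt (2554), Rad18 (282), Thrb (289.5), Tnnt2 (34138), Ttn (412451) and Vdr (7.25). A single control library was low in Jam2 (21965) and Zmat3 (347). The summed level of 1 control library stood high for the lists division cycle (79436), fatty acid handling (438313), collagen (168521), complement (22019) and cardiomyocyte marker (564386), and low for the list of genes tied to Klf2 or Klf4 (198441).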

How the results depend on the processing

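Of 9119 calls, DESeq2 and edgeR on recovered reads gave 9227 and 8946, and filters, pseudocounts, quantile normalisation, the variance models and the 8-library fit gave 8453 to 10445. With each library left out in turn, limma called 8185 to 8846 genes, 4089 to 4392 higher, 4096 to 4454 lower, 3236 to 3548 of at least 2-fold and 712 to 748 list members. Calls of at least 2-fold alone numbered 3488. Scaled to the same median, 6922 genes were called higher and 2908 lower.

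Replicate numbers 2, 3 and 4 recur in both groups. The deviations of same-numbered libraries correlated at -0.215, 0.231 and -0.377 over 11241 genes. Without a common sign, these values cannot decide whether the numbers pair the libraries. With the number as a replicate block 3151 genes were called, 1672 higher and 1479 lower, 1661 of them of at least 2-fold, with 338 list members called. Of the division lists it called 4 spindle and motor, 1 kinetochore and 8 replication genes, at medians of 2.74, 2.32 and 0.98. That fit has fewer residual degrees of freedom.

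Klf2 was called at 0.39 with library quality weights and at 0.63 with the same-median scaling, and ranged over 0.25 to 0.57 with each library left out. Klf4 ranged over -0.14 to 0.14 with each library left out and was 0.24 with the same-median scaling. That scaling also turned the list medians of endothelial markers (0.0782), VEGF and PDGF (0.0503), guidance (0.0865) and G protein-coupled receptors (0.15), and the uncalled values of Ankrd6 (0.19), Ccnd2 (0.25), Cd36 (0.10), Pola2 (0.14), Pold1 (0.0655) and Rela (0.23). Quantile normalisation turned Ankrd6 (0.0928), Cdkn1b (-0.0552) and Slc3a2 (-0.16). The replicate block turned Rela (0.00057), and Slc3a2 turned with DESeq2 (-0.0059), edgeR (-0.0361) and quality weights (-0.0247). With each library left out, Ankrd6 ranged over -0.18 to 0.0218, Ccnd2 over -0.0834 to 0.0310, Rela over -0.14 to 0.0138 and Slc3a2 over -0.13 to 0.103. The cause was not tested. Reads of 23.5 M limit what can be said of genes with few counts.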
